A study of Mus musculus with 48 samples.

Results

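The members of a set of 10 genes tied to glucocorticoid signalling and metal binding were followed in bulk RNA-seq of the mouse substantia nigra (SN): 6 genes whose transcription glucocorticoids raise (*Fkbp5*, *Sgk1*, *Tsc22d3*, *Zbtb16*, *Klf9* and *Plin4*), the metallothioneins *Mt1* and *Mt2*, the cell-cycle inhibitor *Cdkn1a*, and *Nr3c1*, which encodes the glucocorticoid receptor. These 10 genes were chosen by name, with earlier results of these data known. All were among the 19601 protein-coding genes of the batch-corrected table. The study sequenced 48 male C57BL/6J mice, 12 in each of 4 groups, that received alpha-synuclein monomer or preformed fibrils (PFF) by a stereotaxic injection on 1 side, into the right striatum, and breathed 21% or 11% O2. PFF seed the aggregation of the host's own alpha-synuclein, whereas monomer is the injection control. All groups were injected, and no uninjected mice were part of the design. The mice were 121 days old at the injection and were harvested 90 to 98 days later. The sources differ on hypoxia: mice at 11% O2 breathed it for all 12 weeks after the injection, or for the last 6 weeks after 6 weeks at 21% O2. The authors set 6 mice aside, which left 11 monomer and 12 PFF mice at 21% O2, and 9 monomer and 10 PFF mice at 11% O2.

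The glucocorticoid receptor is a ligand-activated transcription factor that is held in the cytoplasm by chaperones, enters the nucleus when it binds corticosterone, and raises the transcription of genes with glucocorticoid response elements. *Fkbp5*, itself a co-chaperone, lowers the receptor's affinity for hormone and so closes a feedback loop. Metallothioneins are small cysteine-rich proteins that bind zinc and copper, and their genes respond both to metals, through the factor MTF1, and to glucocorticoids. Corticosterone follows the time of day and rises with stress.

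The series fell into 3 batches that followed the dates of birth, injection and harvest, except that replicate 11 of the monomer mice at 11% O2, in batch 3, was harvested 98 days after injection and the rest of its batch after 91 days. Batch 1 held all 4 groups, batch 2 held no monomer mice at 11% O2, and batch 3 held no monomer mice at 21% O2. Each of the 42 mice analysed had between 12902996 and 17120921 counts on genes before correction. In these mice the median count of a member ran from 113.5 for *Mt2* to 2125.5 for *Mt1*. Markers of dopaminergic neurons were present in every mouse, but the summed level of 5 of them (*Th*, *Slc6a3*, *Slc18a2*, *Ddc* and *Pitx3*) ran from 522 to 4235 TPM, a measure of transcripts scaled for gene length and library total. In bulk tissue, fewer cells of a type and less RNA per cell cannot be told apart. Separate mice were the replicates.

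Promoter sequences are shown first, for elements that the receptor or metal response can use. RefSeq promoters on GRCm38.p6 were used for 8 of the 10 members, and *Zbtb16* and *Nr3c1* were not among them. The 250 bases before each start were searched on both strands for the glucocorticoid receptor half-site AGAACA, for the full element of 2 such half-sites facing each other 3 bases apart, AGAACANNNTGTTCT, and for the core of the metal response element, TGCGCNC or TGCACNC. Each full element also counts as 2 half-sites. A half-site was in 16.1% of 32851 promoters of the same length and a metal response core in 21.4%, whereas the full element was in 3 of them (0.00913%).

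*Sgk1*, the called member with the largest fold changes below, held 1 of these 3. RefSeq gives 6 starts for *Sgk1*, and the full element lay before the fifth, at chr10:21993640-21993889 on the plus strand. Capitals mark half-sites in the sequence of *Sgk1*, and metal response cores in those of *Mt1* (chr8:94178839-94179088, plus strand) and *Mt2* (chr8:94172368-94172617, plus strand).
Sgk1: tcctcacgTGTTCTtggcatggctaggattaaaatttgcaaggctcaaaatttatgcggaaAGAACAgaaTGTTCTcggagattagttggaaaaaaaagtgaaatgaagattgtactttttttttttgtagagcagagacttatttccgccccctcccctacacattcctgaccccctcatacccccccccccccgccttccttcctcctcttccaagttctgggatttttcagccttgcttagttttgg
Mt1: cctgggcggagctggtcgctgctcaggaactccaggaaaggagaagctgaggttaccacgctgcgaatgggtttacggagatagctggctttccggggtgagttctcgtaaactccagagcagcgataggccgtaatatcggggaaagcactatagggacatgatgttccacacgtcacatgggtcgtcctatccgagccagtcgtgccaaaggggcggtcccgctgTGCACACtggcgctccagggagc
Mt2: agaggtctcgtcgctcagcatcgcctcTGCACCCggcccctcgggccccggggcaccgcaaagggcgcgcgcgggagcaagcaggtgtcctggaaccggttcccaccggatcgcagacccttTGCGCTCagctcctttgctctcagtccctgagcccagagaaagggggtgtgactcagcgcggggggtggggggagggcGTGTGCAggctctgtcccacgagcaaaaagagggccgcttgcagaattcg
The *Mt2* window held 3 metal response cores, where 1.26% of all promoters held at least 3, and the *Mt1* window held 1. A half-site was also found before 2 other starts of *Sgk1* and before 1 of 3 starts of *Tsc22d3*. No match to any of these letters was found in the windows of *Fkbp5*, *Klf9*, *Plin4* and *Cdkn1a*. These matches describe letters in a short window only.

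In GENCODE vM21 on GRCm38, *Fkbp5* (ENSMUSG00000024222.17) lies at chr17:28399094-28517527, *Sgk1* (ENSMUSG00000019970.15) at chr10:21882184-21999903, *Tsc22d3* (ENSMUSG00000031431.13) at chrX:140539528-140600659, *Zbtb16* (ENSMUSG00000066687.5) at chr9:48654297-48836222 and *Klf9* (ENSMUSG00000033863.2) at chr19:23141226-23168134. *Plin4* (ENSMUSG00000002831.14 in the deposited tables, an earlier version of the same identifier in vM21) lies at chr17:56100591-56109803, *Mt2* (ENSMUSG00000031762.7) at chr8:94172664-94173568, *Mt1* (ENSMUSG00000031765.8) next to it at chr8:94179082-94180327, and *Cdkn1a* (ENSMUSG00000023067.14) at chr17:29090976-29100727. Counts here are over exons. Of the 588 exonic bases of *Mt2*, 432 (73.5%) also lie in exons of the antisense gene *Gm45774*, and the authors' counting named no strand option, so reads of the pair cannot be told apart and the level of *Mt2* is uncertain. *Cdkn1a* shares 273 of 3553 exonic bases with another annotated transcript on the opposite strand, and *Plin4* shares 17 of 5777 with *Hdgfl2*. The longest run of identical bases in the *Mt1* and *Mt2* transcripts was 20 bases, so longer reads could be assigned to 1 of them.

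**Figure D1:**
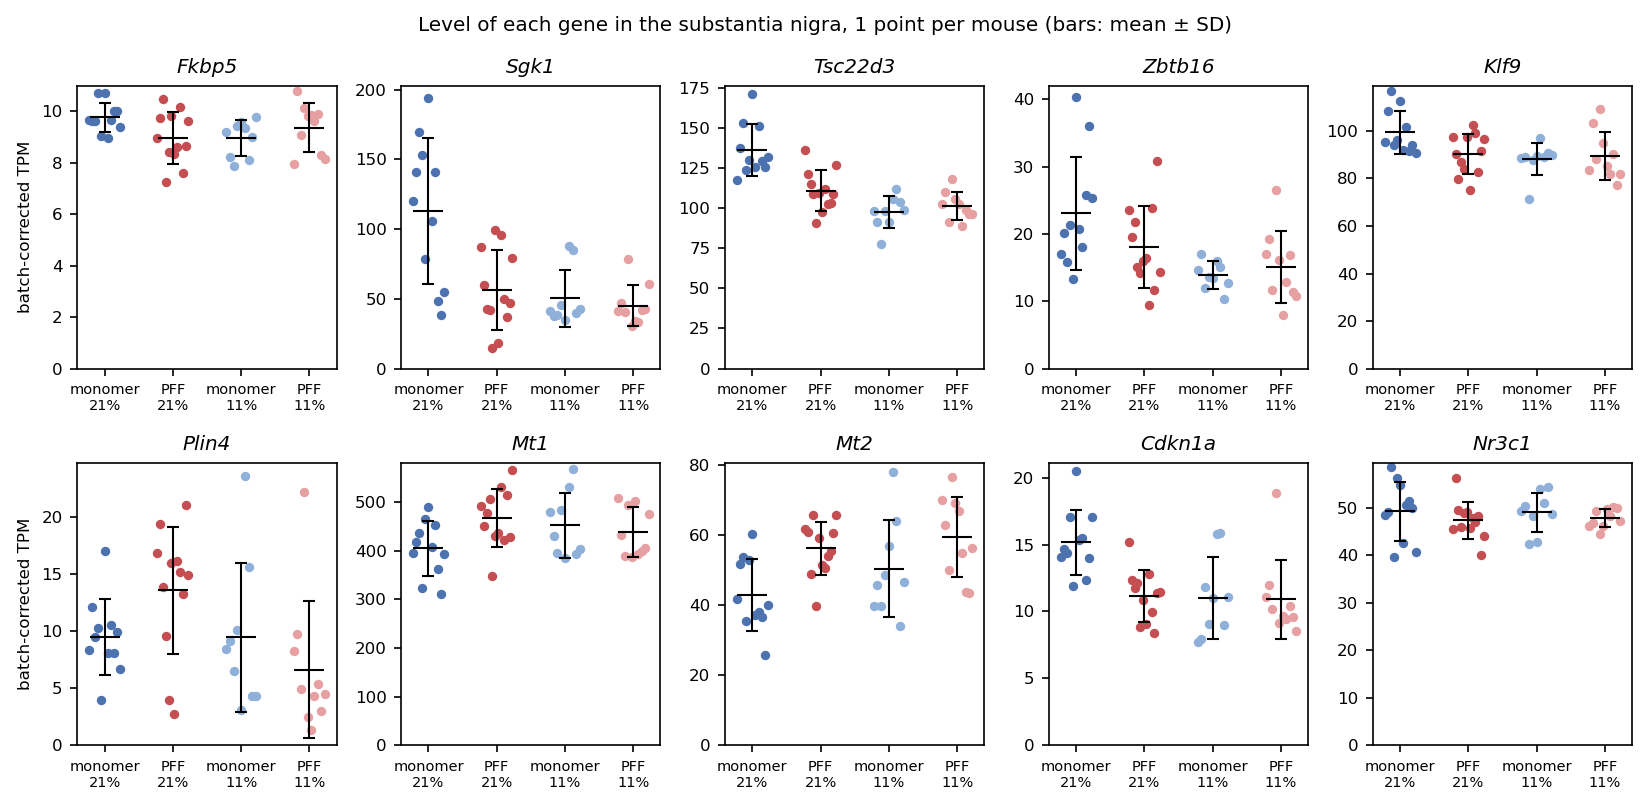
Batch-corrected TPM of the 10 genes in the 42 mice analysed, by injection and O2. Each point is a mouse and bars give the mean ± SD (n = 11, 12, 9 and 10); in the *Sgk1* panel 7 of 11 monomer mice at 21% O2 lie above all PFF mice at 21% O2, and in the *Tsc22d3* panel all monomer mice at 21% O2 lie above all monomer mice at 11% O2.

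*Mt1* was the most abundant member, at 442 ± 61.3 TPM (SD, n = 42), followed by *Tsc22d3* at 112 ± 19.3, *Klf9* at 92.1 ± 9.60 and *Sgk1* at 67.2 ± 42.4 batch-corrected TPM. *Mt2* at 52.2 ± 12.2 and *Nr3c1* at 48.3 ± 4.28 came next and differed by less than the SD of *Mt2*. *Zbtb16* at 17.8 ± 6.85, *Cdkn1a* at 12.1 ± 3.09, *Plin4* at 9.98 ± 5.84 and *Fkbp5* at 9.26 ± 0.875 TPM were the lowest, and the last 3 lay within the SD of *Plin4* of each other. The levels differed in how much they varied between mice of the same group and batch. The residual SD of log2 CPM (counts scaled to library size) was 0.63 for *Plin4*, above that of 98.4% of 14793 genes, and 0.51 for *Sgk1*, above 96.1%. By contrast, it was 0.13 for *Fkbp5* and *Nr3c1* and 0.14 for *Klf9*, beside a median of 0.14 over all genes. *Plin4*, which coats lipid droplets, and *Sgk1*, a kinase that regulates ion channels and transporters, were the members that varied most.

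The first comparison asked what PFF changed at 21% O2. Of the 10 members, 3 were lower (*Sgk1*, *Tsc22d3* and *Cdkn1a*) and 1 was higher (*Mt2*) in PFF than in monomer mice, by the quasi-likelihood test of edgeR with Benjamini-Hochberg adjustment over all genes, where a gene was called if its adjusted p was under 0.05 and it moved by over 0.25 on the log2 scale. Over all 14839 genes tested, 3.7% were called, 1.41% as lower and 2.29% as higher. The median log2 fold change was -0.11 over the members and 0.00085 over all genes.

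*Sgk1* ran from 38.4 to 194 TPM with a median of 120 in monomer mice at 21% O2, and from 14.6 to 99.6 with a median of 48.4 in PFF mice. These are batch-corrected values: before correction the lowest monomer mouse held 63.4 TPM and the lowest PFF mouse 28.7 TPM. All 12 PFF mice lay below the median of the monomer mice, and 7 of 11 monomer mice lay above the highest PFF mouse, although the groups overlapped. The log2 fold change was -0.99 (SE 0.26, edgeR adjusted p = 0.0133). *Tsc22d3*, which encodes the anti-inflammatory leucine zipper protein GILZ, ran from 118 to 171.3 TPM with a median of 129.6 in monomer mice and from 90.4 to 136 with a median of 109 in PFF mice. Of the 12 PFF mice, 9 lay below the lowest monomer mouse. Its log2 fold change was -0.28 (SE 0.064, edgeR adjusted p = 0.00568), close to the threshold on the fold change.

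*Cdkn1a*, which encodes p21 and is a target of both p53 and the glucocorticoid receptor, ran from 11.9 to 20.5 TPM with a median of 14.7 in monomer mice and from 8.37 to 15.2 with a median of 11.4 in PFF mice. Of the 12 PFF mice, 8 lay below the lowest monomer mouse, and the log2 fold change was -0.42 (SE 0.12, edgeR adjusted p = 0.0248). The call of *Cdkn1a* was lost without replicate 6 of the monomer mice (adjusted p = 0.0538) and without replicate 10 of the PFF mice, and that of *Tsc22d3* without the same monomer mouse, where the log2 fold change fell short of 0.25 (-0.24, adjusted p = 0.0147). *Mt2* went the other way, from 25.6 to 60.3 TPM with a median of 39.9 in monomer mice and from 39.7 to 65.8 with a median of 57.2 in PFF mice. Of the 12 PFF mice, 11 lay above the monomer median, and the log2 fold change was 0.40 (SE 0.13, edgeR adjusted p = 0.0444). This call was lost in 14 of 42 fits that each left out 1 mouse, and with batch as a covariate on the uncorrected counts (adjusted p = 0.0606). *Mt1* had a log2 fold change of 0.22 (SE 0.081, edgeR adjusted p = 0.0825), also with 11 of 12 PFF mice above the monomer median, and was not called.

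The other members were not called at 21% O2. *Zbtb16*, a transcriptional repressor, had a log2 fold change of -0.34 (95% interval -0.68 to 0.0036) and *Plin4* of 0.53 (-0.10 to 1.17), so sizeable differences in either gene remain within their intervals. *Fkbp5* was at -0.10 (-0.21 to 0.0034), *Klf9*, a repressor of the Krüppel-like family, at -0.12 (-0.23 to -0.0056) and *Nr3c1* at -0.04 (-0.14 to 0.060). The receptor transcript itself thus differed by no more than 0.14 on the log2 scale within its interval.

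**Figure D2:**
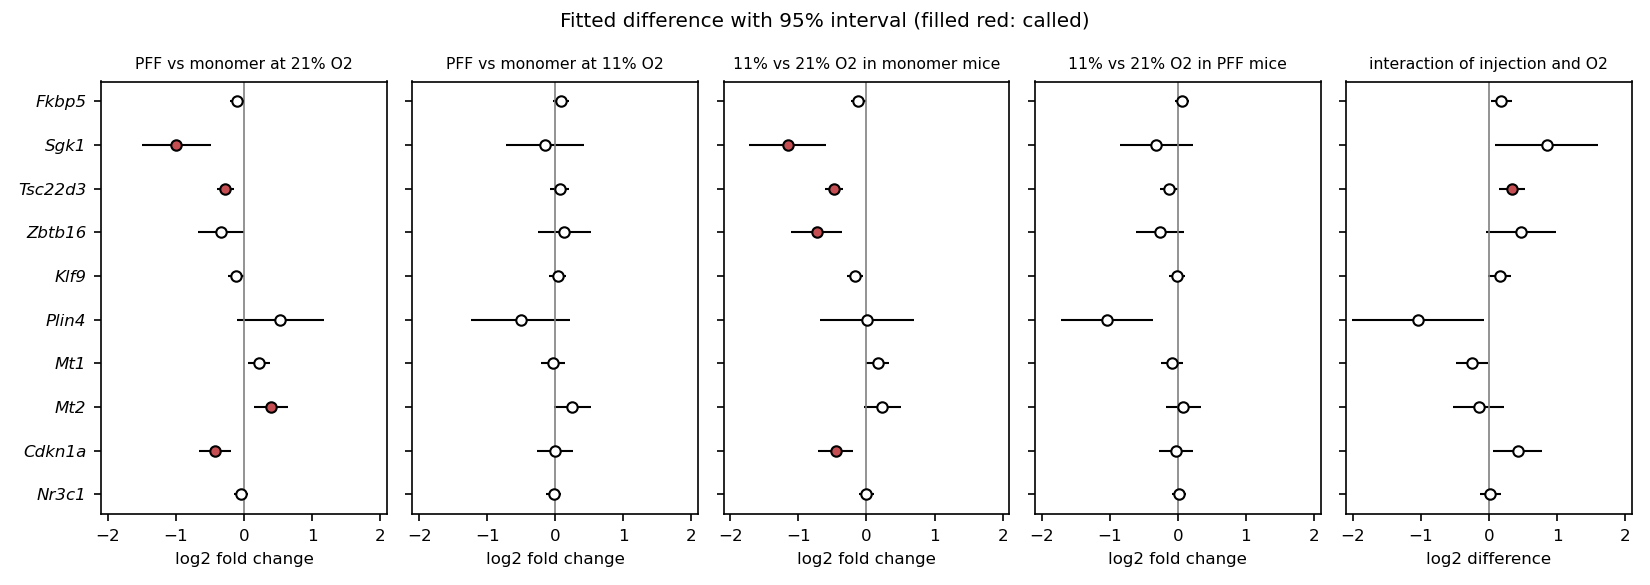
Log2 fold change of each member in the 4 comparisons and the interaction, from edgeR, with 95% intervals as horizontal lines and a vertical line at 0. Filled points were called; *Sgk1*, at -0.99 and -1.16, and *Tsc22d3*, at -0.28 and -0.48, were called lower in both comparisons with the monomer mice at 21% O2.

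The same question at 11% O2 gave no called member and, by edgeR, no called gene at all (0% of 14839), although 581 genes had an unadjusted p under 0.05 and DESeq2 called 1. None of the 10 members was among those with an unadjusted p under 0.05, and 5 had a positive and 5 a negative log2 fold change. *Sgk1* ran from 35.1 to 87.6 TPM with a median of 41.5 in monomer mice and from 30.7 to 78.7 with a median of 41.7 in PFF mice at 11% O2. The log2 fold change was -0.15 (SE 0.29, 95% interval -0.72 to 0.42). This interval overlapped that at 21% O2 (-1.50 to -0.48), and the interaction of *Sgk1* given below was not called (edgeR adjusted p = 0.282). *Tsc22d3* ran from 77.4 to 112 TPM with a median of 98.1 in monomer and from 88.7 to 118 with a median of 100.5 in PFF mice, with a log2 fold change of 0.07 (-0.07 to 0.21). *Mt2* had the smallest p of the members, with a log2 fold change of 0.25 (-0.022 to 0.52), and 8 of 10 PFF mice lay above the monomer median.

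The next comparison asked what 11% O2 changed in monomer mice. It shares the 11 monomer mice at 21% O2 with the first, so the 2 sets of calls are not independent. At 11% O2, 4 members were lower (*Sgk1*, *Tsc22d3*, *Zbtb16* and *Cdkn1a*) and none was higher, beside 7.23% of all genes called, 2.55% as lower. The median log2 fold change was -0.14 over the members and -0.0060 over all genes. *Tsc22d3* in the 9 monomer mice at 11% O2 (77.4 to 112 TPM) did not overlap the 11 monomer mice at 21% O2 (118 to 171.3 TPM), and the log2 fold change was -0.48 (SE 0.070, edgeR adjusted p = 8.47e-06). It was number 40 of all genes by p. The share of all genes without overlap between these groups is not given here, so the separation cannot be read as particular to *Tsc22d3*. For *Sgk1*, all 9 mice at 11% O2 lay below the median at 21% O2, with a log2 fold change of -1.16 (SE 0.29, edgeR adjusted p = 0.00487).

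*Zbtb16* ran from 13.3 to 40.4 TPM with a median of 20.7 at 21% O2 and from 10.4 to 17.0 with a median of 13.6 at 11% O2 in monomer mice. Of the 11 mice at 21% O2, 8 lay above the highest mouse at 11% O2, and the log2 fold change was -0.73 (SE 0.19, edgeR adjusted p = 0.0082). *Cdkn1a* ran from 7.72 to 15.9 TPM with a median of 11.0 at 11% O2, and 7 of 9 mice lay below the lowest at 21% O2 (log2 fold change -0.45, SE 0.13, edgeR adjusted p = 0.017). The calls of *Zbtb16* and *Cdkn1a* did not hold with batch as a covariate on the uncorrected counts (adjusted p = 0.103 and 0.128), while those of *Sgk1* and *Tsc22d3* did. *Klf9* was at -0.17 (SE 0.063, edgeR adjusted p = 0.0697), *Fkbp5* at -0.12 (adjusted p = 0.18), *Mt1* at 0.16 (0.213) and *Mt2* at 0.23 (0.275), and none of these was called. *Plin4* was at 0.0067 with an interval from -0.69 to 0.70, and *Nr3c1* at -0.0032 with an interval from -0.11 to 0.11.

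In PFF mice, 11% against 21% O2 gave no called member by edgeR or DESeq2, beside 0.58% of all genes, and *Plin4* alone had an unadjusted p under 0.05 (0.00449). *Plin4* had the largest change, with a median of 15.1 TPM (2.75 to 21.1) at 21% O2 and 4.70 TPM (1.31 to 22.2) at 11% O2. Before batch correction, the mouse at 1.31 TPM held 3.52 TPM and that at 2.75 TPM held 7.22 TPM. Of the 10 mice at 11% O2, 9 lay below the median at 21% O2, and the exception, replicate 6, held the highest value of both groups. The log2 fold change was -1.03 (SE 0.34, edgeR adjusted p = 0.19), and without replicate 6 of the PFF mice at 11% O2 it was -1.48 (adjusted p = 0.0144), past the threshold. *Tsc22d3* was at -0.13 (95% interval -0.26 to -0.0029, unadjusted edgeR p = 0.0513), *Sgk1* at -0.31 (-0.85 to 0.22) and *Zbtb16* at -0.26 (-0.62 to 0.099).

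The interaction asks whether the response to PFF differed between 21% and 11% O2, as the log2 fold change at 11% minus that at 21%. It was positive for 7 of 10 members, and 1, *Tsc22d3*, was called (0.34, SE 0.096, edgeR adjusted p = 0.043), beside 2.14% of all genes. The call of *Tsc22d3* held in 19 of 42 fits without 1 mouse each, and was lost with no filter on low counts (adjusted p = 0.0558) and with batch as a covariate on the uncorrected counts (adjusted p = 0.102). *Sgk1* had a value of 0.85 (95% interval 0.082 to 1.61, adjusted p = 0.282) and *Cdkn1a* of 0.42 (0.063 to 0.78, adjusted p = 0.24), which did not pass the adjustment over all genes. For *Plin4* it was -1.04 (-2.01 to -0.075, adjusted p = 0.297) and for *Mt1* -0.25 (-0.49 to -0.017, adjusted p = 0.3). The monomer mice at 21% O2 held the highest group median of *Sgk1*, *Tsc22d3*, *Cdkn1a*, *Zbtb16* and *Klf9*, and also of *Nr3c1* (49.9 TPM, beside 47.4 to 49.3 in the other groups), which was called in no comparison.

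**Figure D3:**
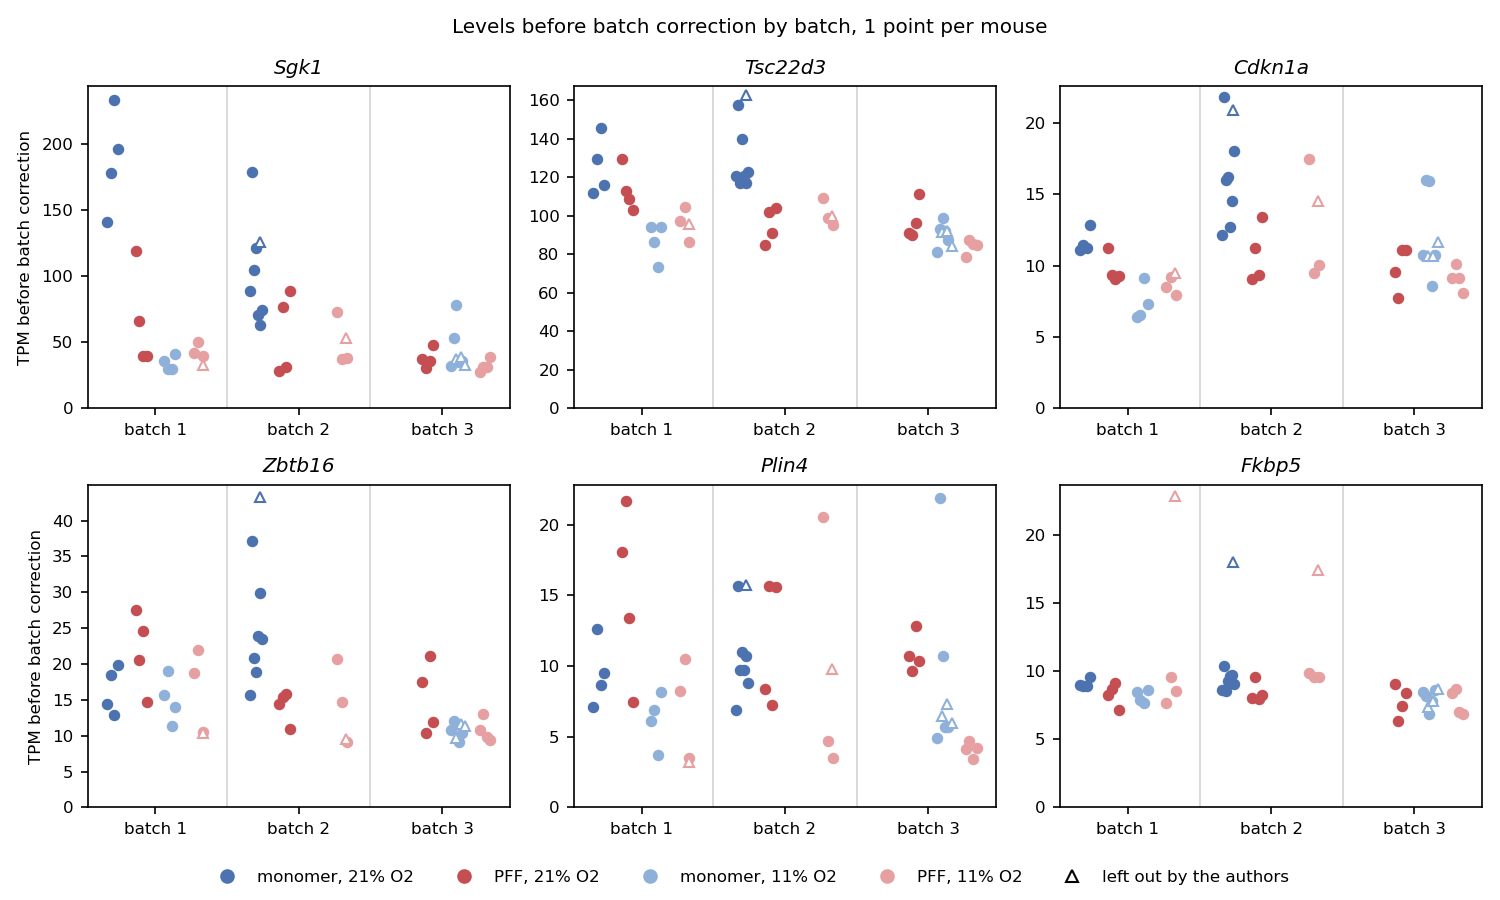
TPM before batch correction of 6 members in each batch, 1 point per mouse, coloured by injection and O2, with open triangles for the 6 mice that the authors left out. In batch 1, *Sgk1* in monomer mice at 21% O2 (141 to 233 TPM) lay above all other groups (30.1 to 119 TPM); *Fkbp5* in 3 of the mice left out (17.4 to 22.9 TPM) lay above all others.

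Before correction, monomer mice at 21% O2 held the highest *Sgk1* median in both batches that had them. In batch 1 the 4 monomer mice at 21% O2 held 141 to 233 TPM, the 4 PFF mice at 21% O2 39.4 to 119, the 4 monomer mice at 11% O2 30.1 to 41.5 and the 3 PFF mice at 11% O2 39.4 to 50.4. The monomer mice at 21% O2 thus overlapped no other group in batch 1. The share of all genes with such a separation, in groups of 3 or 4 mice, is not given here. Fitted in batch 1 alone, the log2 fold change of *Sgk1* was -1.47 for PFF at 21% O2 (edgeR adjusted p = 0.0668) and -2.45 for 11% O2 in monomer mice (edgeR adjusted p = 0.000628). In batch 2, *Sgk1* held 63.4 to 178.5 TPM in 7 monomer mice and 28.7 to 88.6 in 4 PFF mice at 21% O2, with a log2 fold change of -0.82 (edgeR adjusted p = 0.175). In batch 3, which lacks monomer mice at 21% O2, the 3 groups present lay between 27.5 and 78.1 TPM.

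*Tsc22d3* fell with PFF at 21% O2 in batch 2 (log2 fold change -0.41, edgeR adjusted p = 0.0122), where 7 monomer mice held 117 to 158 TPM and 4 PFF mice 84.8 to 104. In batch 1 the difference was -0.12 (adjusted p = 0.598), and the groups overlapped. For 11% O2 in monomer mice in batch 1 it was -0.53 (edgeR adjusted p = 0.0199), and 112 to 145 TPM at 21% O2 did not overlap 73.2 to 94.0 at 11% O2. The share of all genes without overlap between these groups is not given here either. *Cdkn1a* was at -0.23 in batch 1 and -0.55 in batch 2 for PFF at 21% O2 (adjusted p = 0.402 and 0.0967), and at -0.67 for 11% O2 in monomer mice of batch 1 (edgeR adjusted p = 0.0107). *Mt2* was at 0.40 in batch 1 and 0.31 in batch 2 for PFF at 21% O2 (adjusted p = 0.37 and 0.299).

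The differences of *Zbtb16* were not the same in each batch. For PFF at 21% O2 its log2 fold change was 0.44 in batch 1 and -0.78 in batch 2, opposite in sign, and for 11% O2 in monomer mice of batch 1 it was -0.12 (adjusted p = 0.795). Monomer mice at 21% O2 held 12.9 to 19.8 TPM in batch 1 and 15.7 to 37.2 in batch 2, so the high values of that group came from batch 2. Across batches, with group in the fit, 2 of the 10 members differed at an adjusted p under 0.05, beside 36.6% of 14793 genes. These were *Cdkn1a*, higher than in batch 1 by 0.44 in batch 2 and 0.29 in batch 3 on the log2 scale (edgeR adjusted p = 0.00665), and *Fkbp5*, at 0.07 and -0.11 (edgeR adjusted p = 0.036).

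Other genes that glucocorticoids induce, 24 in a list drawn from general knowledge, were read beside the members. The list was made with earlier results of these data known, so its counts are no independent support for the members. With PFF at 21% O2, 5 were called lower and none higher (median log2 fold change -0.15), beside 1.41% and 2.29% of all genes. These 5 were *Per1*, *Errfi1*, *Ddit4*, *Nfkbia* and *Arrdc2*. Of the 24, 7 had a positive log2 fold change. *Errfi1*, an inhibitor of the EGF receptor, ran from 44.6 to 61.3 TPM in monomer and from 35.4 to 52.9 in PFF mice, with a log2 fold change of -0.39 (SE 0.056, edgeR adjusted p = 1.7e-05). *Ddit4*, an inhibitor of mTORC1, was at -0.42 (edgeR adjusted p = 0.00143), the clock gene *Per1* at -0.33 (0.0209) and *Arrdc2* at -0.33 (0.0382). At 11% O2 in monomer mice 6 were called lower and none higher (median -0.16), beside 2.55% and 4.68% of all genes. They were led by *Errfi1* (-0.38), *Per1* (-0.48), *Ddit4* (-0.44) and *Nfkbia*, which encodes the NF-κB inhibitor (-0.44). Of the 24, 8 had a positive log2 fold change in this comparison. None of the 24 was called for PFF at 11% O2 or for 11% O2 in PFF mice, and 1 was called for the interaction, *Errfi1* (0.39, edgeR adjusted p = 0.00775). With batch as a covariate on the uncorrected counts, 3 rather than 5 of the 24 were called for PFF at 21% O2, beside 478 of 14793 genes.

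Among 13 genes for steroid receptors, their chaperones, coregulators and corticosterone enzymes, 12 were tested and none was called in any comparison. Over all genes, 0% to 7.23% were called in these comparisons. *Nr3c2*, the mineralocorticoid receptor, was at 0.01 for PFF at 21% O2 and 0.03 for 11% O2 in monomer mice. Several chaperones had an adjusted p under 0.05 but a log2 fold change within 0.25, and are named after their values were seen. For 11% O2 in monomer mice, *Ptges3* was at -0.24 (edgeR adjusted p = 0.000523), *Hsp90aa1* at -0.24 (0.000572) and *Hsp90ab1* at -0.22 (0.00306).

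Of 14 genes tied to metals, including *Hmox1*, which degrades heme, 1 was called in all comparisons together. This was the copper transporter *Atp7a*, lower with PFF at 21% O2 (log2 fold change -0.30, edgeR adjusted p = 0.0102). Over all genes, 1.41% were called lower in that comparison. *Mt3*, the brain metallothionein, was at 0.08 (adjusted p = 0.352) in the same comparison, and *Mtf1*, the metal-responsive factor, at -0.15 (0.0437), within the fold change threshold. Of 17 p53 targets tested beside *Cdkn1a*, none was called for PFF at 21% O2, and 2 were lower at 11% O2 in monomer mice, *Trp53inp1* (-0.26, edgeR adjusted p = 0.0179) and *Eda2r* (-0.59, edgeR adjusted p = 0.01). Over all genes, 3.7% were called for PFF at 21% O2 and 2.55% as lower at 11% O2 in monomer mice.

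Clock genes and markers of cell types were also called in some of these comparisons. Of 10 clock genes, *Per3* (0.26), *Dbp* (0.61) and *Ciart* (0.45) were higher and *Arntl* (-0.25) lower with PFF at 21% O2, *Per2* was lower at 11% O2 in monomer mice (-0.47) and *Per3* lower at 11% O2 in PFF mice (-0.37). The time of day of harvest was not given in the sources used here, and the part of clock phase in the differences of the members was not tested. All 6 endothelial markers were higher at 11% O2 in monomer mice, with a summed level of 179.4 to 252 TPM at 21% O2 and 241 to 443 at 11% O2, and 2 of 6 were higher in PFF mice. Over all genes, 4.68% were called higher at 11% O2 in monomer mice and 0.438% in PFF mice. Of 6 oligodendrocyte markers, 2, *Mog* and *Cnp*, were higher at 11% O2 in monomer mice, and *Mog* was lower in the interaction. No marker of dopaminergic neurons (5), all neurons (4), astrocytes (6), microglia (5), choroid plexus (4) or leptomeninges (4) was called in any comparison. The share of all genes called ran from 0% to 7.23% over the comparisons. The summed choroid plexus markers ran from 3.79 to 316 TPM over the 42 mice. The part of these cell types in the differences of the members was not tested.

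With the mean of each group and batch removed, 23 of the 45 pairs of members correlated past an adjusted permutation p of 0.05, all of them positively, over 42 mice and 100000 permutations within group and batch (two-sided, Benjamini-Hochberg over the 45 pairs). By Spearman's rho, 20 pairs passed, all among the 23. All counts come from 1 library per mouse, so a pair of genes shares its depth and dissection. The share of pairs among all genes that would pass is not given here, so the 23 cannot be read as particular to the members. The strongest pair was *Sgk1* and *Tsc22d3* (Pearson's r = 0.79, permutation p = 1e-05, the smallest the permutations can give, adjusted p = 0.00015; Spearman's rho = 0.76, permutation p = 1e-05). Without the 2 mice farthest from the median of *Sgk1*, r was 0.74.

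*Tsc22d3* with *Klf9* (r = 0.75, rho = 0.73) and *Sgk1* with *Klf9* (r = 0.71, rho = 0.70) were nearly as close, each with a permutation p of 1e-05. *Mt1* and *Mt2* correlated at r = 0.74 (permutation p = 2e-05, rho = 0.72, r = 0.67 without the 2 farthest mice). *Mt1* also rose with *Tsc22d3* (r = 0.69, permutation p = 4e-05, rho = 0.69), while for *Mt1* and *Fkbp5* r was -0.16 (permutation p = 0.353, rho = -0.11). *Fkbp5* passed with 2 members only, *Klf9* (r = 0.49, permutation p = 0.00203, rho = 0.45) and *Zbtb16* (r = 0.43, permutation p = 0.0133, rho = 0.38). *Zbtb16* correlated with *Plin4* (r = 0.63, permutation p = 0.0001, rho = 0.59), and with *Sgk1* it was at r = 0.24 (permutation p = 0.159, rho = 0.16). *Nr3c1* passed with no member, its r running from -0.23 with *Cdkn1a* to 0.39 with *Mt1*. Each pair among *Sgk1*, *Tsc22d3*, *Klf9* and *Plin4* passed.

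**Figure D4:**
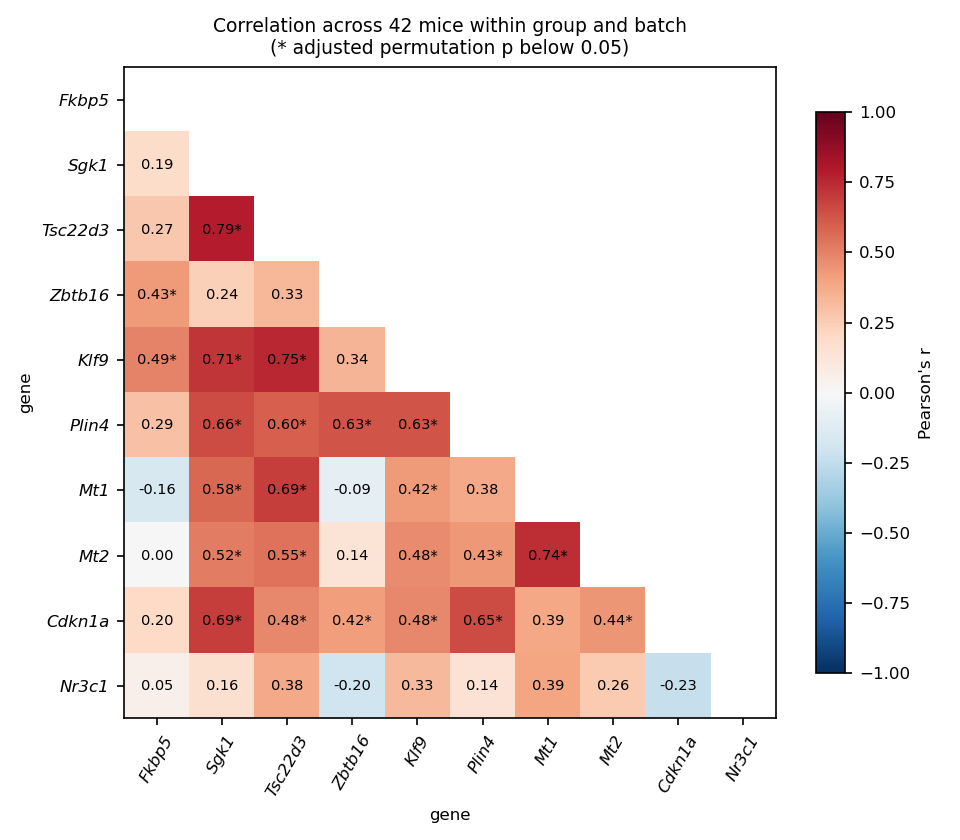
Pearson's r between members across 42 mice, from log2 CPM before correction with the mean of each group and batch removed. Red is positive and blue negative, an asterisk marks an adjusted permutation p below 0.05, and 23 of the 45 pairs carry one, among them *Sgk1* and *Tsc22d3* at 0.79.

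The genes most like the mean of the 6 glucocorticoid-induced members in the same residuals were *Adipor2*, an adiponectin receptor (r = 0.87), *Hif3a*, a hypoxia-inducible factor subunit (0.75), *Mfsd2a*, the lipid transporter of the blood-brain barrier (0.75), *Klf15* (0.73), *Plekhf1* (0.72) and *Paqr8* (0.71), out of 14783 genes over 42 mice. *Hif3a* and *Mfsd2a* are also in the list of 24. The genes most like the mean of *Mt1* and *Mt2* were *Prdx6*, a peroxiredoxin (0.84), *Dbi*, the acyl-CoA binding protein (0.83), *Cyp4f14* (0.82), *Scp2* (0.80), *mt-Nd3* (0.80) and *H2bc4* (0.79). These values describe likeness across mice and were not tested.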

How the data were processed

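The authors removed ribosomal reads, aligned the rest with STAR 2.7.5a to mm10, removed duplicates with Picard 2.21.9 and made counts per gene of GENCODE vM24 with featureCounts 2.0.1, keeping primary alignments of reads with several. The authors deposited these counts and TPM for all 48 mice, and, after leaving out 6 mice by principal components and applying ComBat-seq to the other 42, batch-corrected counts and TPM of 19601 protein-coding genes. From the corrected counts, edgeR 4.0.16 (R 4.3.3; TMM, filterByExpr, quasi-likelihood, 4 groups in 1 fit) tested 14839 genes. This fit held no batch term, and the authors' correction kept group differences while not every batch held all 4 groups. Its p-values can therefore be too small. With batch as a covariate on uncorrected counts, 657 of 14793 genes were called for 11% O2 in monomer mice and 205 for the interaction. The main fit called 1073 and 318 of 14839. A gene was called where its adjusted p was under 0.05 and it moved by over 0.25 on the log2 scale, and the standard error is the absolute log2 fold change over the square root of F. TPM served for levels, on a scale per length. Within-batch fits, the batch test and correlations used uncorrected counts. The fits were tested on simulated counts to which no batch correction was applied. This does not test the p-values of the main fit on corrected counts. Depth, 12902996 to 17120921 counts per mouse, limits the precision of *Mt2*, whose counts ran from 67 to 176.

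Named genes were all 10 members in every comparison, up to 4 called genes of each other list by smallest p (1 more name, *Nfkbia*, and the chaperones were added after values were seen), and the 6 genes closest to each of 2 member means. The members and lists were chosen with earlier results of these data known. Replicate numbers of the labels were checked for pairing and not used in the main fits. Alternatives were DESeq2 1.42.0, its size factors, no filter, batch as a covariate, all 48 mice, batches alone, a replicate block, fewer groups in the fit, the adjusted p alone, limma 3.58.1 on log2(TPM + 1) or log2(TPM + 0.1), also limited to genes of mean TPM 1 or more, leaving out each mouse and, chosen after seeing the data, no batch term. Intervals are 1.96 standard errors. Promoters came from RefSeq (GRCm38.p6). Proteins were not analysed here.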

Additional observations from a re-analysis of the deposited data

Results flagged for a closer look

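Of 20 sets of a member in 1 group with at most 10 mice, 3 held a mouse far from the rest, where chance gives about 1 in 20. *Plin4* in replicate 6 of the PFF mice at 11% O2 was at 22.2 TPM, with the next mouse at 9.74, and *Cdkn1a* in the same mouse was at 18.9, with the next at 12.0. *Klf9* in replicate 3 of the monomer mice at 11% O2 was at 71.4 TPM, with the next mouse at 87.8. For *Tsc22d3* the difference between the responses to PFF at 11% and 21% O2 passed the threshold (interaction 0.34 on the log2 scale), a call that was kept in 19 of 42 fits without 1 mouse each.

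Of the 6 mice that the authors left out, 4 held a member above all 42 mice kept, before correction. Over all 14793 genes, 5.90% to 17.2% lay above the mice kept in each of these 6 libraries and 2.66% to 49.1% below. For *Fkbp5*, PFF mice at 11% O2 gave 22.9 TPM (replicate 2) and 17.4 TPM (replicate 5) and the monomer mouse at 21% O2 (replicate 10) gave 18.1 TPM, while the mice kept ran from 6.35 to 10.4 TPM. Replicate 10 also held the highest *Tsc22d3*, at 162.9 TPM, and *Zbtb16*, at 43.3 TPM. Replicate 2 of the PFF mice held *Klf9* at 115, *Mt1* at 597 and *Mt2* at 127 TPM, in a library of 3134594 counts, the smallest of all 48, and 2 members below all mice kept, *Nr3c1* at 31.4 TPM (lowest kept 36.5) and *Plin4* at 3.20 TPM (lowest kept 3.42). *Nr3c1* reached 56.4 TPM in the PFF mouse of replicate 5 and 61.0 TPM in the monomer mouse of replicate 8, both at 11% O2. *Sgk1* lay within the range of the mice kept in all 6.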

How the results depend on the processing

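The number of members called for PFF at 21% O2, 4 in the report, was 0 in batch 1 alone and 2 in batch 2 alone, and ran from 2 to 5 over fits without 1 mouse each. Over all genes, batch 1 alone called 9 of 14768 and batch 2 alone 580 of 14837. The 0 in batch 1 is thus from a fit that called few genes of any kind. Leaving out replicate 6 of the monomer mice at 21% O2 ended the calls of *Tsc22d3* and *Cdkn1a*, and leaving out replicate 10 of the PFF mice at 21% O2 that of *Cdkn1a*. For 11% O2 in monomer mice the number of members was 2 with batch as a covariate on the 42 mice, beside 657 of 14793 genes, and 4 in every fit without 1 mouse. For 11% O2 in PFF mice it ran from 0 to 1 without 1 mouse each. For the interaction, 1 in the report, it was 0 with no filter, with batch as a covariate on 42 or 48 mice, and in batch 1 alone, 2 with no batch term (*Sgk1* as well), and 0 to 1 without 1 mouse each. The batch test called 1 member over all 48 mice, where the share over all genes is not given. The cause was not tested. DESeq2, its size factors, limma and the groups compared alone kept each number within 1.5 times. No called value changed sign.

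Same-numbered mice in different groups correlated between -0.40 and 0.56 (median 0.0033, 21 of 54 pairs over 0.1). The paper describes a randomized design of matched pairs, and the labels do not say whether the numbers follow them. Correlations of expression cannot decide this, because mice matched by weight or age need not have similar expression. With a replicate block, 1 member was called for 11% O2 in PFF mice (*Plin4*, -1.28, edgeR adjusted p = 0.022) and 0 for the interaction. Over all 14839 genes, this fit called 72 and 292. *Mt2*, with the fewest counts, and its antisense overlap limit what can be said of that gene.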

Other observations

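Other glucocorticoid-induced genes lay outside the range of the mice kept in the 3 mice left out that held the highest *Fkbp5*, in both directions. Of the 24 genes listed, 6 lay above all 42 mice kept in replicate 10 of the monomer mice at 21% O2, and 6 in each of replicates 2 and 5 of the PFF mice at 11% O2. *Cebpd*, *Angptl4*, *Txnip* and *Sult1a1* were among the 6 in all 3. In replicate 2 of the PFF mice at 11% O2, another 6 lay below all mice kept (*Errfi1*, *Arrdc2*, *Arrdc3*, *Nedd9*, *Rhob* and *Mfsd2a*), and in replicate 5 *Mfsd2a* did. Over all 14793 genes, 7.06% lay above and 3.13% below the mice kept in replicate 10 of the monomer mice, 10.1% and 49.1% in replicate 2 and 17.2% and 5.27% in replicate 5 of the PFF mice. In the other 3 mice left out, 1 or 2 of the 24 lay above the mice kept, and in replicate 8 of the monomer mice at 11% O2 1 lay below. These genes are named after their values were seen, and no test was made.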
